A study of Mus musculus with 10 samples.

Results

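The genes described here are 10 members of the circuit through which cytokine receptors act on transcription and are then restrained. They comprise 4 CCAAT/enhancer binding protein (C/EBP) factors, Cebpa, Cebpb, Cebpd and Cebpg, 4 suppressors of cytokine signaling, Socs1, Socs2, Socs3 and Cish, the transcription factor Stat3, and Il6st, which encodes the shared receptor chain gp130. The members were chosen by name, with Cebpb and Socs1 picked because they were high in the graft libraries. All 10 were found among 15078 genes and passed the filter on low values (a mean normalized read count of at least 10), as did 13644 genes in all.

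RNA was sequenced from mouse skeletal stromal cells sorted as CD51+CD200+ after exclusion of blood and endothelial cells (CD45-, Ter119- and CD31-). Graft BM-MSCs (bone marrow mesenchymal stem cells, n = 4) were Tomato+ cells from the marrow of femurs of transgenic (POSTN-CRE) donors carrying a tdTomato reporter, collected 5 months after the femurs had been placed under the skin of wild-type recipients that were given tamoxifen soon after surgery. The Cre in these donors is driven by the Postn promoter, which is active in the periosteum but also in osteoblasts and other connective tissue cells. BM-MSCs (n = 3) and periosteal skeletal stem cells (P-SSCs, n = 3) came from wild-type mice, in libraries titled host and steady state. The titles do not say whether these mice had been given tamoxifen. In each of these groups 1 library was labelled with a pair of sample numbers (BM-MSC 2+4 and P-SSC 2+5). The paper states that RNA from a pair of mice was combined where applicable, and that replicates held RNA of distinct mice. The graft libraries therefore differed from both other groups in genotype, transplantation and the Tomato gate, and possibly in tamoxifen. These differences cannot be told apart. In bulk RNA, fewer cells of a type and less RNA per cell cannot be told apart either.

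Cytokines of the interleukin-6 family bind receptors that share gp130, whose associated JAK kinases phosphorylate STAT3. STAT3 then enters the nucleus and drives, among others, Socs3, whose product binds gp130 and the kinases and shuts the signal down. The related inhibitors SOCS1 and CISH act mainly on interferon and on growth hormone or STAT5 signals, and SOCS2 on the growth hormone receptor. C/EBPβ and C/EBPδ are induced by cytokines and stress and act early in fat cell differentiation, C/EBPα acts later and maintains the fat cell program, and C/EBPγ is a family member without a strong activation domain that pairs with the others. In the marrow, stromal cells of this kind carry leptin receptor and express many genes of the adipocyte lineage.

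The libraries held 15415421 to 25223295 reads, and 9308 to 11674 genes had a read in the graft libraries against 12217 to 13341 in the others. Genes whose longest transcript is over 65% G and C (51 genes) split the libraries. Relative to genes of 50 to 60% GC, these genes were higher by 1.52 to 2.80 on the log2 scale in the 4 graft libraries and P-SSC 4, and lower by values from -1.81 to -1.51 in the other 5 libraries. P-SSC 4 is thus the only steady-state library on the side of the graft. The labels name no batch, and graft status and this split cannot be told apart in the BM-MSC comparison, which has no BM-MSC library on the graft side. Values for P-SSC 4, and for fits that take the split or GC content into account, are given where they bear on a result. Only the P-SSCs have libraries on both sides, so the split covariate is set by P-SSC 4 against the other P-SSCs. In graft against BM-MSCs it takes off that difference, so every such value rests on P-SSC 4. Replicates came from separately labelled samples, and no pair of libraries of the same group agreed within sampling noise.

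Promoter sequence was available for 8 of the 10 members as the 250 bases before the RefSeq transcription start on GRCm38.p6. The 3 below are those of Cebpb and Socs1, the members with the largest graft to BM-MSC ratios, and of Cebpa, which unlike them was lowest in P-SSCs. They are printed 5′ to 3′ on the gene's strand, at chr2:167688665-167688914 (plus strand), chr16:10785537-10785786 (minus strand) and chr7:35119043-35119292 (plus strand), and none of them touches an annotated exon of its gene. Capitals mark the GC box GGGCGG, the interferon regulatory factor (IRF) motif (GAAA, any 2 bases, GAAA) and the TATA box TATAAA.
Cebpb: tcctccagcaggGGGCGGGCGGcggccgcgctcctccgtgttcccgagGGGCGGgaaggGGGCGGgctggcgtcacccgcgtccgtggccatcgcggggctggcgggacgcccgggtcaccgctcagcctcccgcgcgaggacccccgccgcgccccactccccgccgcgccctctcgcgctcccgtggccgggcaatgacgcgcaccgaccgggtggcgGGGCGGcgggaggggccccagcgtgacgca
Socs1: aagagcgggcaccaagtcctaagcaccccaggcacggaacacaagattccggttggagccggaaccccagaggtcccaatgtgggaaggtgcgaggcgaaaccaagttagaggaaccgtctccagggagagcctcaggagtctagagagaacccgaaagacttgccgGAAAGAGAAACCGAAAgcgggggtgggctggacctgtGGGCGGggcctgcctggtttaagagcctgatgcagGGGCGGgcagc
Cebpa: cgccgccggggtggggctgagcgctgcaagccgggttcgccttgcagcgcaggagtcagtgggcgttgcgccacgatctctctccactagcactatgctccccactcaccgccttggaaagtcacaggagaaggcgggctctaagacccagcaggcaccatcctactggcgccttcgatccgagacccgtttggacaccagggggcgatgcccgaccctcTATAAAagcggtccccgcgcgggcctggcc

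The Cebpb promoter was 81.6% G and C, more than 99.3% of 32851 mouse promoters, whose median was 52.4%. It held 5 GC boxes, the first 2 of them overlapping, where 16.7% of promoters held 2 or more. The Socs1 promoter (61.2% GC) held 2 GC boxes and 2 overlapping IRF motifs, at 83 and 77 bases before the start. A motif of this kind was in 2.98% of promoters, and it was searched for after the sequence had been seen. The Cebpa promoter (66.4% GC) held a TATA box 30 bases before the start, a match found in 12.4% of promoters. The STAT motif TTCNNNGAA, found in 7.02% of promoters, occurred in Socs3 alone among the 8 members. Its match is printed in capitals within 29 bases of the minus strand at chr11:117969502-117969530, 154 bases before the start.
Socs3: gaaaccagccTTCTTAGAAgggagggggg
No window held the C/EBP motif TTGCNNAA (9.56% of promoters) or the cyclic AMP response element TGACGTCA (1.55%). All motifs were searched on both strands, and a match describes letters only. Of the windows not printed in full, 77 bases for Socs3, 7 for Cebpg and all 250 for Cish lay in annotated exons of the gene.

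Cebpb separated the graft libraries from all others by the widest margin of the 10 genes. Its normalized read counts were 1416, 2232, 2549 and 2625 in graft BM-MSCs 1 to 4, 4.18, 16.9 and 7.89 in BM-MSCs 1, 2+4 and 3, and 14.5, 35.7 and 282 in P-SSCs 1, 2+5 and 4. Every graft value lay above every steady-state value, and the highest steady-state value was that of P-SSC 4. The graft mean was 2205 ± 553 (SD, n = 4), which is 229 times that of BM-MSCs (9.65 ± 6.53, n = 3) and 19.9 times that of P-SSCs (111 ± 149, n = 3). Because Cebpb was chosen for this level, these ratios are a description and carry no test. The BM-MSC values rest on 4 to 16 reads per library.

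On the log2(value + 1) scale the graft to BM-MSC difference of Cebpb was 7.84 (SE 0.98), and it was 4.27 with the GC split of the libraries as a covariate. A correction of each library over gene GC content gave 5.82 by least squares and 5.29 by robust regression. Cebpb is a single-exon gene of 67.2% GC at chr2:167688915-167690418, the most GC-rich of the 10, and in its GC class the median gene was itself higher in the graft by 2.52. It shares 312 exonic bases with Tmem189 on the other strand, and the sources used here do not state whether reads were counted by strand.

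**Figure D1:**
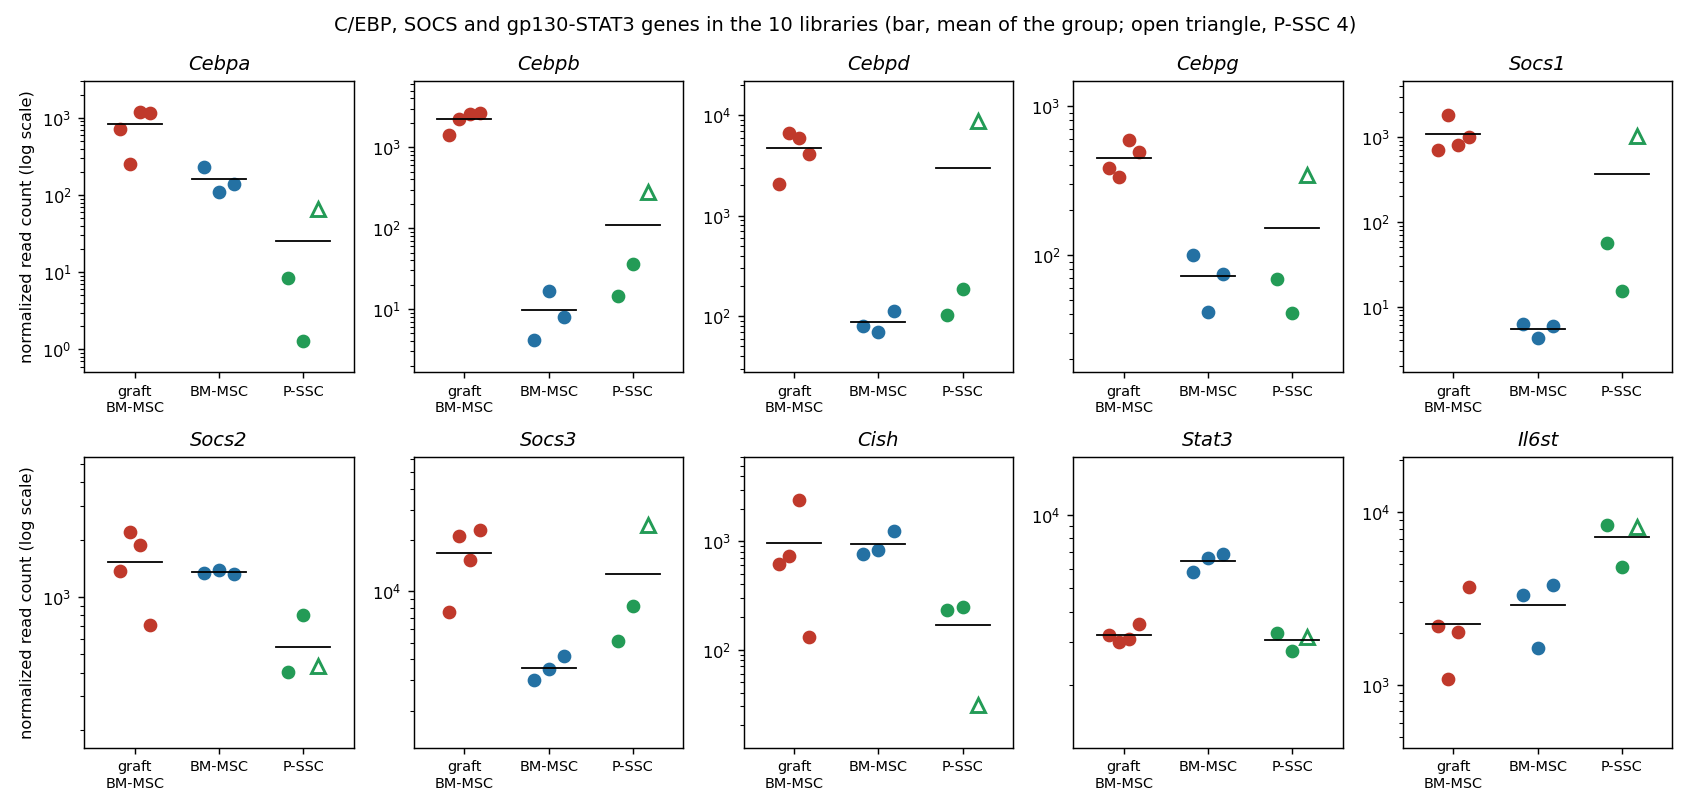
Normalized read count (log axis) of the 10 genes in each of the 10 libraries, by group, with a bar at the group mean and an open triangle for P-SSC 4. Cebpb is the gene whose graft points, from 1416 to 2625, stand farthest above the rest, and for Cebpd, Socs1 and Socs3 the P-SSC 4 triangle lies within or above the graft points.

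Cebpd, the other early C/EBP factor, was also high in the graft but not in the graft alone. Its counts were 2050, 6667, 5962 and 4078 in the graft, 79.4, 69.6 and 112 in BM-MSCs, and 103, 187 and 8755 in P-SSCs. P-SSC 4 was above all 4 graft libraries, while P-SSC 1 and P-SSC 2+5 lay close to BM-MSCs. Cebpd was higher in graft BM-MSCs than in BM-MSCs by 5.63 on the log2 scale (SE 1.24, adjusted p = 0.0238 by limma). The split covariate takes off the 5.97 by which P-SSC 4 exceeded the mean of the other P-SSCs. With it the difference was -0.34 (adjusted p = 0.932 by limma), so the call ended and the sign turned. By edgeR on the recovered reads it was 5.73 (adjusted p = 0.0694). Leaving out graft BM-MSC 3 or any 1 BM-MSC library gave adjusted p-values from 0.0531 to 0.0935 by limma. Against all 3 P-SSCs the difference was 2.94 (adjusted p = 0.128 by limma), and without P-SSC 4 it was 4.93 (adjusted p = 0.000309). With 51.6% GC, Cebpd is not GC-rich, and both GC corrections left the BM-MSC difference in place, at 6.53 by least squares and 6.26 by robust regression. It shares 562 exonic bases with Spidr on the other strand, whose values ran from 0 to 307 in the graft and from 311 to 705 in P-SSCs.

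Cebpa marked marrow against periosteum. The values were 711, 253, 1200 and 1146 in the graft, 233, 109 and 137 in BM-MSCs, and 8.31, 1.27 and 66.9 in P-SSCs, and neither neighbouring pair of groups overlapped. Cebpa was higher in graft BM-MSCs than in P-SSCs by 5.97 on the log2 scale (SE 1.12, adjusted p = 0.00409 by limma). It passed the threshold in 22 of 24 fits, both GC corrections included (5.95 and 5.62), the exceptions being the split covariate (3.38, adjusted p = 0.158 by limma) and the fit with a replicate block. The graft to BM-MSC difference of 2.21 (SE 1.12) did not pass the test (adjusted p = 0.246 by limma), and with the split as a covariate its sign turned to -1.67 (adjusted p = 0.867). The P-SSC to BM-MSC difference of -3.76 did not pass either (adjusted p = 0.0870 by limma). It passed in 5 of 24 fits. These included the fit without P-SSC 4 (-5.05, adjusted p = 0.0115 by limma), that with the split covariate and both GC corrections. In P-SSC 2+5 the gene rested on 1 read.

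Cebpg spanned the narrowest range of the 4 C/EBP genes. It measured 382, 331, 586 and 489 in the graft, 99.2, 41.1 and 74.0 in BM-MSCs, and 68.6, 40.8 and 343 in P-SSCs. The graft and BM-MSC values did not overlap, and P-SSC 4 fell among the graft values. The graft to BM-MSC difference of 2.68 (SE 0.80) missed the threshold by limma (adjusted p = 0.0708) and passed it after GC correction (3.32, adjusted p = 0.0247 by least squares). With the split as a covariate it was 0.01 (adjusted p = 0.999 by limma).

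Socs1, an inhibitor of interferon and other JAK-dependent signals, was barely detected in BM-MSCs. Its counts were 699, 1847, 801 and 1017 in the graft, 6.27, 4.22 and 5.92 in BM-MSCs, and 56.1, 15.3 and 1047 in P-SSCs. P-SSC 4 exceeded 3 of the 4 graft libraries. The graft mean of 1091 ± 521 (SD, n = 4) was 200 times that of BM-MSCs (5.47 ± 1.10, n = 3), which rests on 4 to 6 reads per library. As Socs1 was chosen for its graft level, this is a description with no test. The log2 difference of 7.31 (SE 1.25) became 2.20 with the split as a covariate, and 7.88 or 7.78 after GC correction by least squares or robust regression. Against P-SSC 4 alone, which is what the split covariate leaves of the P-SSC comparison, the difference was -0.05. Between P-SSCs and BM-MSCs, a contrast the choice did not use, Socs1 did not overlap and differed by 3.95 (SE 1.33, adjusted p = 0.108 by limma).

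Socs3, the inhibitor that STAT3 induces on gp130, was the most abundant of the 10 transcripts in the graft per kilobase of exon, at 5780 ± 2384 normalized reads (SD, n = 4), ahead of Cebpb (1466 ± 368) and Cebpd (1252 ± 553), whose ranges overlapped each other. Its normalized read counts were 7597, 21022, 15278 and 22944 in the graft, 3023, 3521 and 4151 in BM-MSCs, and 5084, 8262 and 24677 in P-SSCs. All BM-MSC values lay below those of both other groups, and the highest value of all was in P-SSC 4. Socs3 was higher in the graft than in BM-MSCs by 2.12 on the log2 scale (SE 0.52, adjusted p = 0.0342 by limma). This call did not hold with the split as a covariate (0.19, adjusted p = 0.951 by limma), and it was lost on leaving out any 1 BM-MSC library or graft BM-MSC 2, 3 or 4 (adjusted p from 0.0648 to 0.121). By edgeR on the recovered reads the difference was 2.22 (adjusted p = 0.0679). The call held under both GC corrections, with 2.72 by least squares.

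Socs2 and Cish, the members tied to growth hormone and STAT5 signals, followed another order. Socs2 measured 1362, 2179, 1866 and 715 in the graft, 1332, 1389 and 1326 in BM-MSCs, and 403, 806 and 433 in P-SSCs. The marrow groups overlapped (0.07 on the log2 scale, adjusted p = 0.948 by limma), and the graft was higher than P-SSCs by 1.44 (SE 0.42, adjusted p = 0.0366), a call that passed in 11 of 24 fits. It was 1.70 with the split as a covariate (adjusted p = 0.160 by limma), and 2.09 or 1.87 after GC correction by least squares or robust regression (adjusted p = 0.0392 and 0.0571). Cish measured 617, 725, 2415 and 129 in the graft, 763, 826 and 1251 in BM-MSCs, and 231, 248 and 31.0 in P-SSCs. The graft range enclosed all BM-MSC values, and P-SSC 4 was the lowest of the 10 libraries. None of the Cish differences passed the test in the 3-group fit, that between graft and P-SSCs being 2.32 (SE 0.97, adjusted p = 0.126 by limma). That difference passed after least-squares GC correction (3.32, adjusted p = 0.0479 by limma) but not after the robust one (3.06, adjusted p = 0.0631) or with the split as a covariate (4.26, adjusted p = 0.0823). The graft to BM-MSC difference of Cish, -0.59, had the opposite sign in 7 of the other fits.

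Stat3 was lower in graft BM-MSCs and in P-SSCs than in steady-state BM-MSCs. Its values were 3218, 3005, 3088 and 3558 in the graft, 5828, 6641 and 6908 in BM-MSCs, and 3259, 2763 and 3138 in P-SSCs. Graft and P-SSC values intermingled, P-SSC 4 lay with the other P-SSCs, and the BM-MSC values stood apart above them. The graft to BM-MSC difference was -1.005 (SE 0.17, adjusted p = 0.00814 by limma) and the P-SSC to BM-MSC difference -1.08 (SE 0.19, adjusted p = 0.00356). The 2 comparisons share the BM-MSC libraries. With the split as a covariate the former was -1.07 (adjusted p = 0.185 by limma), and after GC correction it was -0.06 by least squares or -0.27 by robust regression, neither past the threshold. The median of all genes tested was -0.53 in the same comparison. Stat3 shares 72 exonic bases with Stat5a on the other strand, which had the same order of groups, with a mean of 893 in the graft, 3027 in BM-MSCs and 719 in P-SSCs.

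Il6st was highest in the periosteum. It measured 2189, 1079, 2010 and 3699 in the graft, 3294, 1638 and 3763 in BM-MSCs, and 8391, 4819 and 8223 in P-SSCs. The marrow groups overlapped and the P-SSC values lay above both. Il6st was lower in the graft than in P-SSCs, with a log2 change of -1.76 (SE 0.43, adjusted p = 0.0176 by limma), against a median of -0.47 over all genes. Without P-SSC 1 or P-SSC 4 the adjusted p was 0.0833 or 0.0528 by limma, with the split as a covariate it was 0.129 for a difference of -2.01, and after GC correction 0.0660 by least squares (-0.95) and 0.0386 by robust regression (-1.13). The excess of P-SSCs over BM-MSCs, 1.34 (SE 0.46), did not pass (adjusted p = 0.116 by limma). It passed in 2 of 24 fits, the least-squares and robust GC corrections (adjusted p = 0.0296 and 0.0392 by limma).

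**Figure D2:**
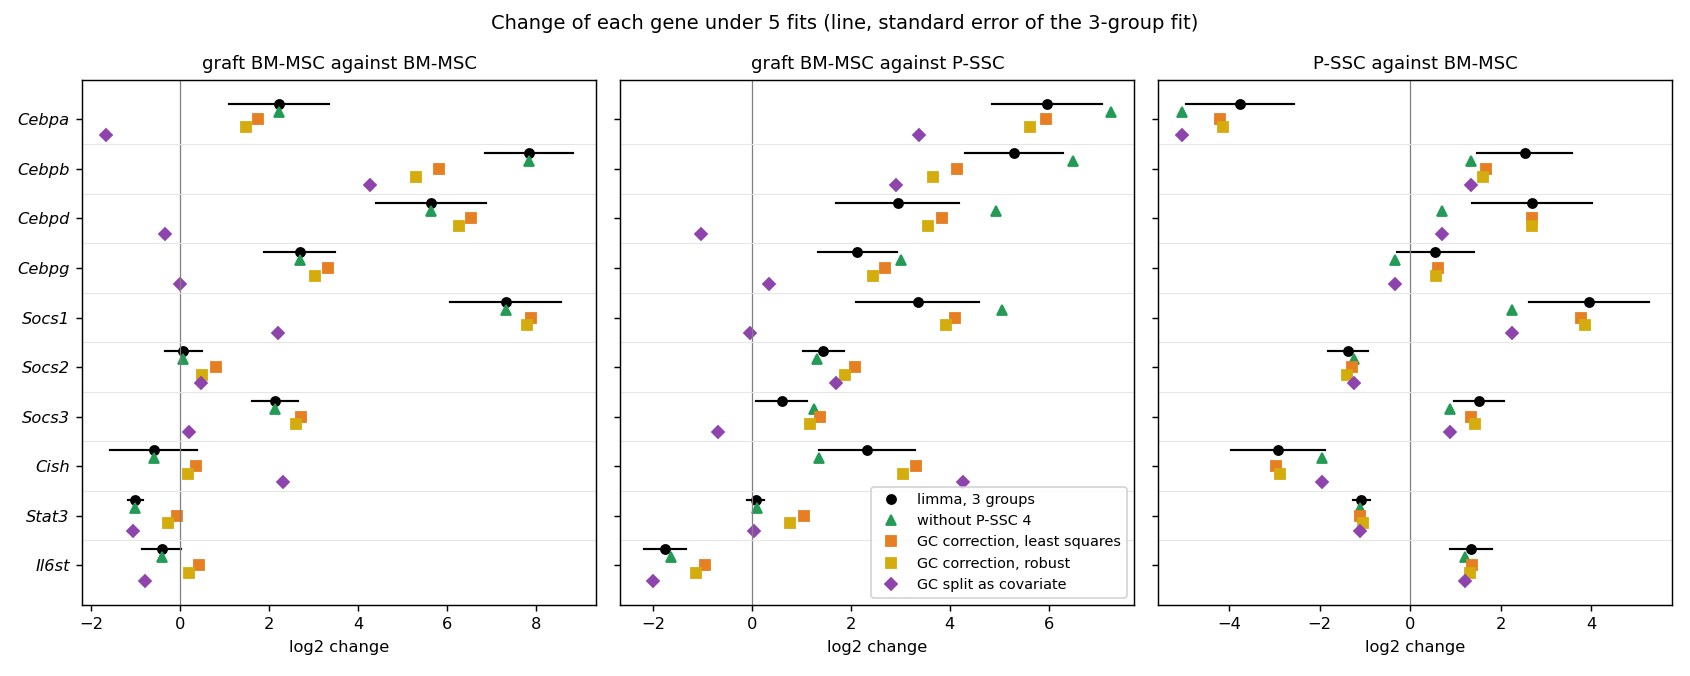
Log2 change of each gene (horizontal axis) in the 3 comparisons under 5 fits, with the standard error of the 3-group limma fit as a line. In graft BM-MSCs against BM-MSCs the split covariate moves Cebpd from 5.63 to -0.34 and Socs3 from 2.12 to 0.19.

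Leaving aside Cebpb and Socs1, 2 of 8 members passed the test as higher in graft BM-MSCs than in BM-MSCs (Cebpd and Socs3) and 1 as lower (Stat3), where 2.61% of all genes were called higher and 5.06% lower. In the same comparison 4 of the 8 did not overlap between the groups with the graft higher and 1 with it lower, against 10.3% and 14.7% of all genes. Against P-SSCs, Cebpa and Socs2 passed as higher and Il6st as lower (6.08% and 12.0% of all genes), and 1 member in each direction did not overlap (8.06% and 18.5%). Between P-SSCs and BM-MSCs, none of the 10 passed as higher and Stat3 alone passed as lower (4.57% and 4.58% of all genes). At an unadjusted p under 0.05, 8 of the 10 differed in that comparison, and 4 passed by DESeq2 and 2 by edgeR. No share of all genes is set beside these counts, so they show nothing particular to the members. There 3 members did not overlap with P-SSCs higher and 4 with P-SSCs lower (15.1% and 15.8%).

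With the split as a covariate none of the 8 members passed in either graft comparison by limma, where 0.293% and 7.92% of all genes were called. At an unadjusted p under 0.05 there were 1 and 4, with no share of all genes to set beside them. In the same fit Cebpa and Stat3 passed as lower between P-SSCs and BM-MSCs, where 8.83% of all genes passed in either direction. That fit sets the graft against P-SSC 4 alone and P-SSCs 1 and 2+5 against BM-MSCs. In graft against BM-MSCs it takes off the difference between P-SSC 4 and the other P-SSCs. Least-squares GC correction called 3, 6 and 3 members in the 3 comparisons. It also moved the median change of all genes in the graft comparisons to 0.23 and 0.28, and a robust version, added after this was seen, brought the medians to -0.01 and 0.04 and called 3, 2 and 3. No share of all genes called is given for either correction, so these member counts have no baseline here.

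P-SSC 4 stood apart from the other P-SSCs in most members. It was above the mean of P-SSCs 1 and 2+5 by 5.97 on the log2 scale for Cebpd, 5.10 for Socs1, 3.88 for Cebpa, 3.57 for Cebpb, 2.67 for Cebpg and 1.93 for Socs3. It was close to them for Stat3 (0.06), Il6st (0.37) and Socs2 (-0.40), and below them for Cish (-2.91). Only 0.682% of all genes had a difference as large as that of Cebpd, and 1.88% one as large as that of Socs1. Against P-SSC 4, all 4 graft libraries were higher for Cebpa, Cebpb, Socs2 and Cish, and none was for Cebpd, Socs3 and Il6st.

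**Figure D3:**
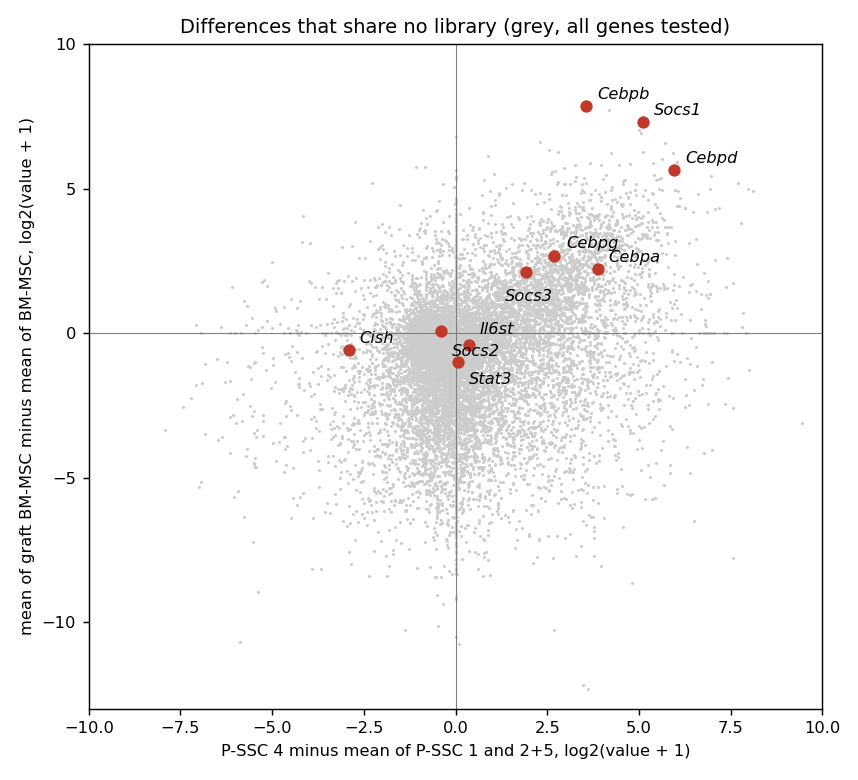
Difference between P-SSC 4 and the other P-SSCs (horizontal axis) against that between graft BM-MSCs and BM-MSCs (vertical axis), both on the log2(value + 1) scale, for 13644 genes in grey and the 10 members in red. Cebpd (5.97 and 5.63) and Socs1 (5.10 and 7.31) lie in the upper right corner, and Cebpb is the highest member on the vertical axis.

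The members ranged from 43.3% to 67.2% GC. Cebpd (51.6% GC) and Cebpg (43.3%) were higher in the graft by 5.63 and 2.68, while Stat3 and Cish, of similar GC content to Cebpd (52.5% and 53.1%), were at -1.005 and -0.59. In the class of 50 to 55% GC, 0.140% of genes had a difference at least that of Cebpd. Socs3 (58.7%) and Cebpa (62.6%) were at 2.12 and 2.21.

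**Figure D4:**
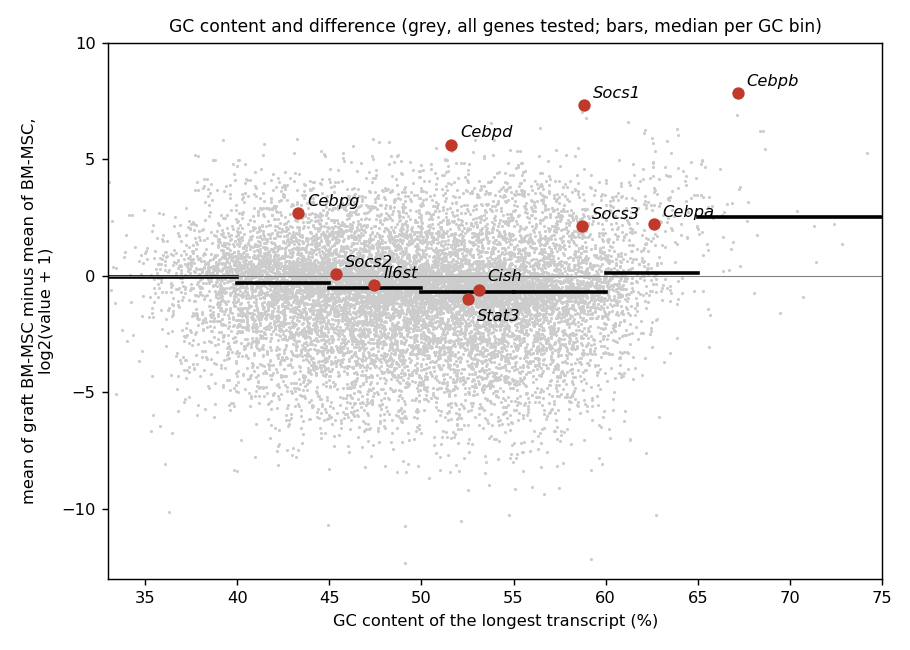
GC content of the longest transcript in percent (horizontal axis) against the difference between graft BM-MSCs and BM-MSCs on the log2(value + 1) scale, with all genes in grey, the median of each GC class as a black bar and the 10 members in red. The medians stay between -0.71 and 0.12 up to 65% GC and reach 2.52 above it, and Cebpb lies in that last class.

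Upstream of these genes, several receptors of the pathway differed between marrow and periosteum. Of 92 further genes in 9 lists, 87 were in the table, and 10, 26 and 25 of them passed by limma in graft against BM-MSCs, graft against P-SSCs and P-SSCs against BM-MSCs, where 7.67%, 18.1% and 9.15% of all genes did. With the GC split as a covariate none of the 87 passed in graft against BM-MSCs, where 0.293% of all genes did. Every call named below in that comparison therefore ended, which is not particular to these genes. Among 5 gp130 ligands, Il6 was higher in the graft than in BM-MSCs by 3.66 (SE 0.88, adjusted p = 0.0322 by limma), with 97.2, 895, 248 and 410 in the graft and 13.6, 20.04 and 46.4 in BM-MSCs. P-SSCs had 2488, 1783 and 487, above BM-MSCs by 5.73 (adjusted p = 0.00247 by limma), with P-SSC 4 the lowest of them. Osm, the other ligand called, passed as lower in both groups than in BM-MSCs and was at 0 in every graft and P-SSC library. None of the 5 passed between graft and P-SSCs.

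None of 14 receptors passed between graft and BM-MSCs, whose median change of -0.18 compares with -0.53 for all genes. Against P-SSCs, 6 were higher and 2 lower in the graft, where 6.08% and 12.0% of all genes were. Lepr, the leptin receptor that marks marrow stroma, ranged from 22640 to 37374 in the graft and from 210 to 1034 in P-SSCs (5.63 on the log2 scale, adjusted p = 4.7e-05 by limma). Ghr, the growth hormone receptor upstream of Socs2 and Cish, ranged from 4546 to 6622 and from 153 to 841 (3.67, adjusted p = 0.000494). Il11ra1, which pairs interleukin-11 with gp130, was the reverse, at 1062 to 2430 in the graft and 17366 to 21709 in P-SSCs (-3.49, adjusted p = 2.4e-05). Lifr, the partner of gp130 for leukemia inhibitory factor, was lower in P-SSCs than in BM-MSCs, with a change of -3.69 (adjusted p = 0.000102 by limma). The calls of Lepr, Ghr, Il11ra1 and Lifr held with the split as a covariate and under both GC corrections.

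Of 9 JAK kinases and other STATs, Stat5a alone passed between graft and BM-MSCs, as lower (-1.91, adjusted p = 0.0391 by limma), and it did not pass under either GC correction. Jak3, a kinase best known from lymphocytes, was higher in the graft than in P-SSCs by 7.36 (adjusted p = 0.00277 by limma), and P-SSCs 2+5 and 4 were at 0. This call held with the split as a covariate (9.19) and under both GC corrections. None of 12 other inhibitors of the pathway, which include Socs4 to Socs7, passed between graft and BM-MSCs, and Ptpn1, a phosphatase acting on JAK kinases, was higher in the graft than in P-SSCs (1.69, adjusted p = 0.0143 by limma), though not with the split as a covariate (adjusted p = 0.308). Among 4 partners of the SOCS box, the part of these proteins that recruits a ubiquitin ligase, Elob was lower in the graft than in P-SSCs (-0.96, adjusted p = 0.0489 by limma), a call lost with the split as a covariate and under both GC corrections, and none passed elsewhere. Of 7 relatives and regulators of C/EBP factors, Ddit3, a stress-induced C/EBP that blocks its partners, was lower in the graft at 189 to 325 than in BM-MSCs at 653 to 736 (-1.47, adjusted p = 0.0337 by limma). That call was lost under both GC corrections.

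Downstream, 3 of 11 known STAT3 target genes were higher in the graft than in BM-MSCs, where 2.61% of all genes were, and the median change of the 11 was 0.89. Bcl3, an atypical IκB protein, measured 802, 1139, 1107 and 609 in the graft against 65.8, 136 and 29.6 in BM-MSCs (3.76, adjusted p = 0.00831 by limma). Nfil3 and the survival gene Mcl1 were higher by 3.22 and 5.14 (adjusted p = 0.00809 and 0.0282 by limma). Mcl1 measured 98.2, 3.16 and 185 in BM-MSCs, and the value in BM-MSC 2+4 rests on 3 reads. With the split as a covariate none of the 3 passed (adjusted p = 0.610, 0.715 and 0.866 by limma), where 0.293% of all genes did. Under both GC corrections all 3 passed. P-SSC 4 stood above P-SSCs 1 and 2+5 for all 3, reaching 2172 for Mcl1 against 340 and 298. Against P-SSCs, Bcl3 passed as higher in the graft (2.39, 6.08% of all genes) and Myc as lower (-2.15, 12.0%). With the split as a covariate these changes were 1.55 and -0.996, and Myc passed under neither GC correction. Myc and Nfil3 passed as higher in P-SSCs than in BM-MSCs (2.65 and 2.45, 4.57% of all genes). Myc did not pass there after least-squares GC correction.

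Of 14 known C/EBP target genes none passed between graft and BM-MSCs. Between graft and P-SSCs 6 were higher in the graft, where 6.08% of all genes were. The 6 included the fat cell hormone gene Adipoq (34596 to 76228 against 2.08 to 7.64) and Hp, encoding haptoglobin (91423 to 306676 against 15.5 to 286). C3, the complement gene, was lower, with a change of -3.29 (adjusted p = 4.7e-05 by limma). These 3 calls held with the split as a covariate and under both GC corrections. For Adipoq, unlike Cebpb, steady-state BM-MSCs were as high as the graft, at 47085 to 83452.

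**Figure D5:**
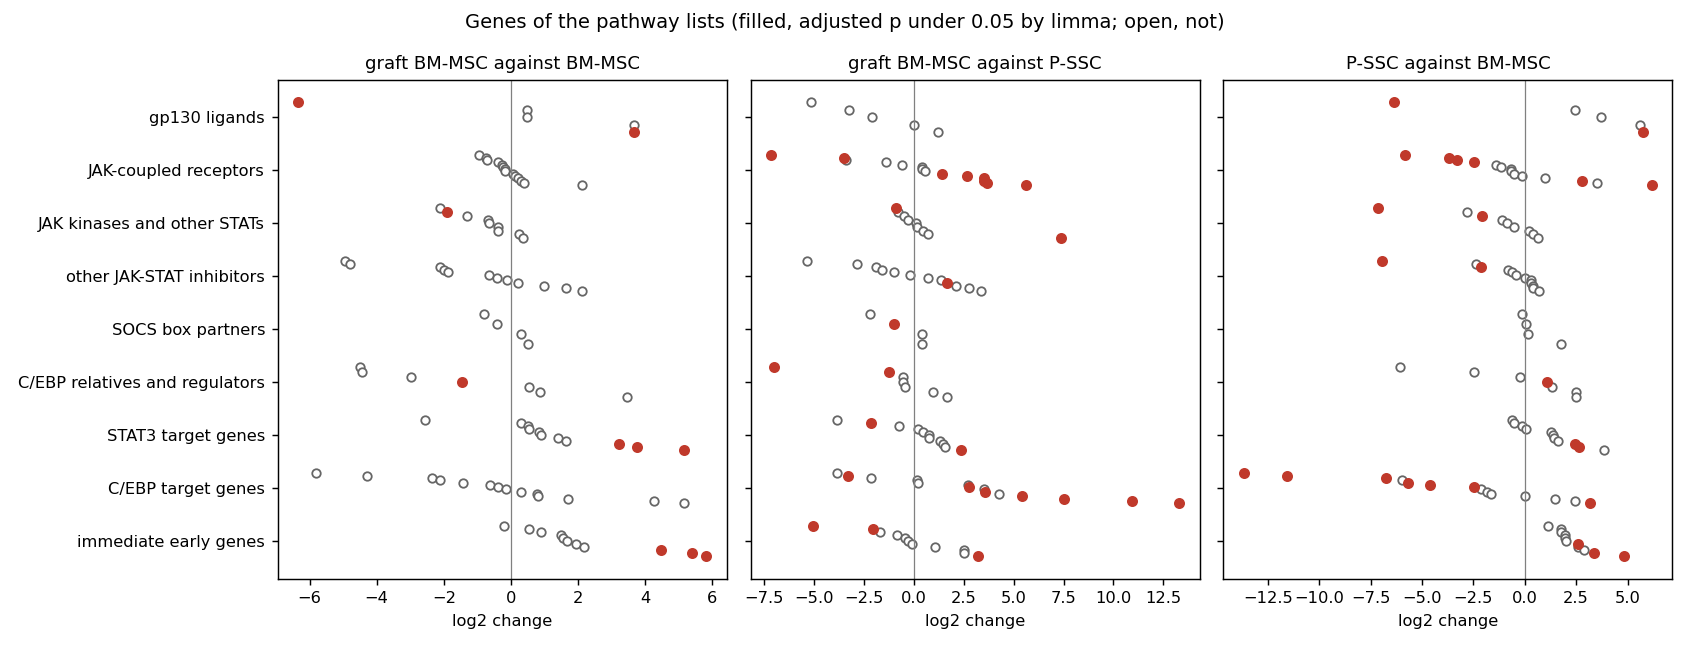
Log2 change of the genes of 9 pathway lists in the 3 comparisons, 1 point per gene, filled where the adjusted p by limma is under 0.05. In graft against BM-MSCs 10 of 87 genes are filled, 7 of them higher, and none of the receptors or C/EBP targets is.

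Immediate early genes rise within minutes of stimulation or of tissue handling. Of 11, Dusp1, Egr1 and Jun were higher in the graft than in BM-MSCs, where 2.61% of all genes were. Their changes were 5.82, 5.39 and 4.46 on the log2 scale (adjusted p = 0.00725, 0.00401 and 0.0242 by limma). With the split as a covariate the changes were 1.37, 2.09 and -0.30, none past the threshold, where 0.293% of all genes were. Under both GC corrections all 3 passed. P-SSC 4 was above the other P-SSCs in the same 3 genes by 4.45, 3.29 and 4.76 and in Ier2 by 1.99, and below their mean in the other 7, Fos and Atf3 included. Against P-SSCs, Dusp1 passed as higher in the graft (3.21), where 6.08% of all genes did. Atf3 and Nr4a1 passed as lower (-5.06 and -2.06, 12.0% of all genes). With the split as a covariate these changes were 0.24, -4.15 and -1.37, and Nr4a1 passed under neither GC correction. Atf3, Ier3 and Nr4a1 passed as higher in P-SSCs than in BM-MSCs (4.84, 3.39 and 2.58, 4.57% of all genes). The latter calls held with the split as a covariate and under both GC corrections. The part of cell handling in the levels of Cebpb, Cebpd, Socs1 and Socs3 was not tested.

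The genes whose levels followed those of Cebpb most closely over the 10 libraries, out of 9546 genes averaging 100 or more, were Akt1, Pnrc1, Kctd2, Pmepa1 and Map1lc3a, with Pearson r from 0.988 to 0.978. For Socs1 they were Foxo1, Egr1, Klf9, Tusc2 and Deaf1 (0.980 to 0.974), and for Cebpa Pth1r, Mtarc1, Abhd15, Fgfr2 and Cnnm1 (0.984 to 0.967). These libraries share the GC split, and the correlations are given without a test. Akt1 had means of 3303, 340 and 647 in graft BM-MSCs, BM-MSCs and P-SSCs.

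Markers of the sorted populations fitted the labels of the marrow and periosteal groups. The summed count of 4 marrow stroma markers was 663311 to 812775 in the graft, 830214 to 1130906 in BM-MSCs and 4505 to 8842 in P-SSCs, and that of 4 periosteal markers was 332 to 2150, 5277 to 9038 and 202674 to 348991. The summed count of 4 markers of the sorted stroma was 15602 to 25137 in the graft, 36429 to 41555 in BM-MSCs and 14955 to 27192 in P-SSCs. Blood cells also express Cebpa, Cebpb and Socs3. The sum of 7 neutrophil markers was 5624 to 106513 in the graft, 28950 to 85988 in BM-MSCs and 12.6 to 110 in P-SSCs, with Mpo at 0 in all graft and P-SSC libraries. The sum of 7 macrophage markers was 1374 to 13401, 4366 to 16636 and 455 to 2511, with Adgre1 at 0 in the graft. The sum of 6 erythroid markers was 1483 to 27755, 58705 to 205924 and 202 to 1407. Of 4 endothelial markers, 2 were in the table, with sums of 0, 24.3 to 81.5 and 2.08 to 58.6. The part of other cell types in the levels of the 10 genes was not tested.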

How the data were processed

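RNA was sequenced from 10 libraries of 1 table, grouped by the labels. The authors aligned reads with STAR, counted them per gene with featureCounts and deposited counts divided by DESeq2 size factors, here called normalized read counts (a signal without fixed units). The submitters' processing notes name STAR 2.5 and GRCm39, and the methods another STAR release and GRCm38, so the build behind the counts is not settled. Coordinates printed are those of GENCODE M21 and RefSeq on GRCm38. Every value was a whole multiple (tolerance 0.02) of 1 read, worth 0.565 to 1.27, so read totals were recovered. A count of 0 allows up to 3 reads, 1.69 to 3.82 normalized, for counting error only.

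Values were tested as log2(value + 1) with limma 3.58.1 (trend, 7 residual degrees of freedom, 3 groups in 1 fit, Benjamini-Hochberg over 13644 genes with a mean of at least 10), after a check on simulated data. Because the deposited values are not counts, edgeR 4.0.16 and DESeq2 1.42.0 on recovered reads were alternatives. GC correction used local regression of each library on GC content (span 0.3). Its robust version was added after the least-squares result was seen. Members and lists were chosen with earlier results of these data known. Named list genes were up to 3 per list, direction and comparison with an adjusted p under 0.05 and a mean of at least 100. They were ranked by change, and not every gene that met this rule is named. Osm, Ier2, Fos and Socs4 to Socs7 were added after values were seen. By the paper, replicates held RNA of distinct mice. The labels do not name the animals, and p-values measure the spread between these libraries. A further marker list is not reported here.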

Additional observations from a re-analysis of the deposited data

Results flagged for a closer look

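Trib3, which encodes a pseudokinase that binds C/EBP and ATF4 partners, measured 95.8 in graft BM-MSC 4 and 0 in the other graft libraries, which set this library apart from its group. It was 1 of 38 graft groups of 4 values examined, and chance sets apart about 1 in 20 such groups. Trib3 measured 100.3, 145 and 23.7 in BM-MSCs and 538, 308 and 388 in P-SSCs.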

How the results depend on the processing

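Of 30 changes of single members, 9 had the opposite sign under at least 1 alternative, 7 of them with the GC split of the libraries as a covariate. Among changes past the threshold, or described without a test, that covariate gave -0.34 for Cebpd in graft BM-MSCs against BM-MSCs and -0.048 for Socs1 in graft BM-MSCs against P-SSCs. The other signs that turned belonged to changes that had not passed, those of Cebpa, Socs2, Cish and Il6st in graft BM-MSCs against BM-MSCs, Cebpd and Socs3 in graft BM-MSCs against P-SSCs, and Cebpg in P-SSCs against BM-MSCs, with split-covariate values of -1.67 (Cebpa), 2.32 (Cish), -1.04 (Cebpd), -0.68 (Socs3) and -0.34 (Cebpg).

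Counts of members called (3 of 8, 3 of 8 and 1 of 10 in graft against BM-MSCs, graft against P-SSCs and P-SSCs against BM-MSCs) and of pathway list genes called (10, 26 and 25 of 87) moved by more than 1.5 times as follows. The split covariate gave 0, 0 and 2 members, and 0 and 13 list genes in the graft comparisons. A fit with a replicate block gave 0 members in each comparison and 0, 9 and 3 list genes. It called 3, 269 and 54 of all genes, where the fit without it called 1046, 2464 and 1248. The titles do not say whether same-numbered libraries shared an animal. Deviations of same-numbered libraries from their group means correlated at -0.02 to 0.03. Most of these pairs join a graft with a steady-state library, so the correlations cannot settle whether animals were shared. Least-squares GC correction gave 6 members against P-SSCs, 3 in P-SSCs against BM-MSCs and 16 list genes in graft against BM-MSCs, and the robust version, chosen after seeing the data, gave 2, 3 and 11. edgeR gave 1 member and 4 list genes in graft against BM-MSCs and 2 members in P-SSCs against BM-MSCs, and DESeq2 gave 21 list genes and 4 members in the same comparisons. Quantile normalization and the fit of only the groups compared gave 2 members in P-SSCs against BM-MSCs. Leaving out 1 library gave 1 to 4, 1 to 4 and 1 to 2 members and 5 to 16, 16 to 33 (17 without P-SSC 2+5) and 16 to 30 list genes. Over all genes, the split covariate called 40 and 1081 in the graft comparisons, edgeR 316, 1531 and 619, and DESeq2 1947 in graft against BM-MSCs. The cause of these shifts was not tested. Pseudocounts of 0.1 and 5, no filter, a mean of at least 100 and median centring moved no count of members by over 1.5 times. BM-MSC levels of Cebpb and Socs1 rest on 4 to 16 reads, which limits their ratios.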
